A study of Mus musculus with 32 samples.

Results

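The genes described here belong to the axon guidance families of semaphorins, plexins, neuropilins, ephrins, Eph receptors, Slits and Robos. They were chosen by gene symbol, and 63 of the 24952 genes of the count table matched. The rule itself used no measured value, although earlier results of these data were known when it was set. These were 7 class 3 semaphorins, 13 semaphorins of classes 4 to 7, 9 plexins, 2 neuropilins, 5 ephrin-A and 3 ephrin-B ligands, 9 EphA and 5 EphB receptors, 3 Slits, 4 Robos and 3 transcripts of the strand opposite to Plxna4, whose symbols start alike. Of the 63, 48 were tested and 15 were too low to judge.

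RNA was sequenced from 32 laser-captured samples of the tibialis anterior (TA), a muscle of the shin, with 8 libraries in each of 4 groups. Groups labelled 10m, xNMJ and NMJ alike, came from mice aged 10 months that had been on AIN93M diet for 2-3 months, and those labelled 30m from mice aged 30 months that had been on it for 16 months. All were male, wild type C57BL/6JRj mice kept in single cages. NMJ samples pooled many synaptic regions, found by the binding of α-bungarotoxin to acetylcholine receptors, and xNMJ samples pooled muscle regions away from the synapse. Library totals ran from 4026648 to 16516788 counts, with group medians of 9605869 in NMJ against 6062117 in xNMJ at 10 months and 9825357 against 6790011 at 30 months. The labels do not say which libraries came from separate animals, so p-values measure the spread between these libraries.

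The labelled tissue fitted its markers. The 6 muscle fibre markers, led by Tnnt3 (fast troponin T), had median sums between 63415 and 68056 TPM (a level scaled for transcript length and library) in the 4 groups. The 7 markers of synaptic nuclei, led in NMJ by Chrne (the adult acetylcholine receptor subunit), had median sums of 1052 TPM in NMJ against 9.69 in xNMJ at 10 months and 1061 against 11.9 at 30 months. RNA of motor axon genes was low: 5 of them summed to medians between 0.327 and 0.874 TPM, with Chat the most abundant. Motor neuron cell bodies lie in the spinal cord, outside the sampled tissue. A library labelled 30m xNMJ, replicate 5, stood apart from its group: its synaptic sum was 155 TPM and that of the next 30m xNMJ library 13.5, and the called guidance genes at 30 months are given with and without it.

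Semaphorins are secreted or membrane-bound guidance cues. Class 3 members are secreted and bind neuropilins, which signal through plexins, whereas most other classes bind plexins directly. Ephrins are tied to the membrane and bind Eph receptor tyrosine kinases on a neighbouring cell. Slits are secreted and repel growing axons and migrating cells through Robo receptors. All these families also act on blood vessels, and several are known from muscle, glia and bone.

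Promoter sequence is shown for 3 members that were higher in NMJ at both ages, because synaptic genes of muscle are often described by the N-box, a binding motif of Ets factors such as Etv5, and the E-box, the motif of myogenic factors. The windows are the 250 bases before the start in RefSeq (GRCm38.p6), and capitals mark the N-box (CCGGAA, either strand) and the E-box (CANNTG). Sema3d lies at chr5:12382916-12383165 and Sema3e at chr5:14025026-14025275, both on the plus strand, and Plxnd1 at chr6:115995006-115995255 on the minus strand.
Sema3d: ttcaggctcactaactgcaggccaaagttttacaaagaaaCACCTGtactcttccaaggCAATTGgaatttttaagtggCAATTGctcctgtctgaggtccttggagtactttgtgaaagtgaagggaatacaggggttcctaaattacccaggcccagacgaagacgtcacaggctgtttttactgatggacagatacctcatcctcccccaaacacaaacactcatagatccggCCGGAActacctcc
Sema3e: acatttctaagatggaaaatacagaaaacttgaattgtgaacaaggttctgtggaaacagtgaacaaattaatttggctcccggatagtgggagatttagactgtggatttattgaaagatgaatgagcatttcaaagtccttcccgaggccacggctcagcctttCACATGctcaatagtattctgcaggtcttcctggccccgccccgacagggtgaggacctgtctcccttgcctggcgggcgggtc
Plxnd1: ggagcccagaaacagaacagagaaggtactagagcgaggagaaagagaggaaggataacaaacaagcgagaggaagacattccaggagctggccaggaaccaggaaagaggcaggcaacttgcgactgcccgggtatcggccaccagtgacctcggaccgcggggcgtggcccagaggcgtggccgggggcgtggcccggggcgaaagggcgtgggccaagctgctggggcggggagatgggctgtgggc
Sema3d held an N-box that began 14 bases before the start and 3 E-boxes, Sema3e an E-box and no N-box in the bases shown, and Plxnd1 neither. With the 50 bases after the start searched too, 8 of the 9 members higher in NMJ at either age had 11 windows in the table, of which 1 (9.09%) held an N-box and 9 (81.8%) an E-box. Over all 32851 windows, 14.9% held an N-box and 72.3% an E-box. A match is a description of the letters and does not show binding.

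At 10 months, 7 of the 48 tested guidance genes were higher in NMJ than in xNMJ and 0 were lower. They were the ligands Sema3a, Sema3d, Sema3e, Sema4d and Slit1 and the receptors Plxnb2 and Plxnd1. Without replicate 1 of 10m xNMJ, 12 were higher. For fits with a library left out, here and below, the share of all genes called is not given, so their counts cannot be set against such a share. At 30 months 8 were higher, namely Sema3d, Sema3e, Sema4d, Sema4f, Slit1, Plxnb2, Plxnb3 and Plxnd1, and 1 was lower, Plxna4. Without replicate 5 of 30m xNMJ, 7 were higher and 1 lower, Sema4f being lost, and without replicate 2 or 6 of 30m xNMJ or replicate 3 of 30m NMJ, 6 were higher and 0 lower. Of the members higher in NMJ, 6 were so at both ages, which is 6 of the 7 at 10 months and 6 of the 8 at 30 months. A gene passed with an adjusted p under 0.05 in edgeR's quasi-likelihood test, with adjustment over all 13990 genes whose CPM, the count scaled by library size, was 1 or more in 8 or more libraries. Of these genes 6.50% were higher and 5.05% lower in NMJ at 10 months, and 5.0% higher and 4.25% lower at 30 months. The guidance genes thus stood at 14.6% and 16.7% higher. The median log2 fold change over the 48 was 0.12 at 10 months and 0.18 at 30 months, and over all tested genes it was 0.0036 and -0.014. These folds are from counts scaled by TMM. In log2(TPM + 1) the median tested gene was higher in NMJ by 0.37 at 10 months and 0.49 at 30 months, so that genes such as Sema3c at 30 months, Nrp1 at both ages and Epha5 at 10 months had the higher or nearly equal TPM median in NMJ beside a fitted fold change under 0.

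Other tools and settings changed both the members' counts and the share of all genes called. DESeq2 called 11 of the 48 higher and 0 lower at 10 months, beside 8.78% and 5.82% of all genes, and 10 higher and 1 lower at 30 months, beside 6.73% and 5.50%. With the stricter filter of 5 CPM, edgeR called 5 of 24 tested members higher and 0 lower at 10 months, beside 6.83% and 7.15%, and 4 higher and 1 lower at 30 months, beside 5.85% and 6.59%. With insert size as a covariate it called 6 of the 48 higher at 10 months, beside 5.01% higher and 3.10% lower over all genes, and 7 higher at 30 months, beside 4.76% and 4.04%, and the lower call was lost. On log2(TPM + 1) limma called 11 higher and 0 lower at 10 months, beside 19.2% and 1.69%, and 15 higher and 1 lower at 30 months, beside 25.0% and 0.429%. On log2(TPM + 0.1) it called 12 and 15 higher and 0 lower, beside 19.9% and 25.9% higher and 1.63% and 0.386% lower. In TPM the share of members called higher thus lay close to that of all genes.

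**Figure D1:**
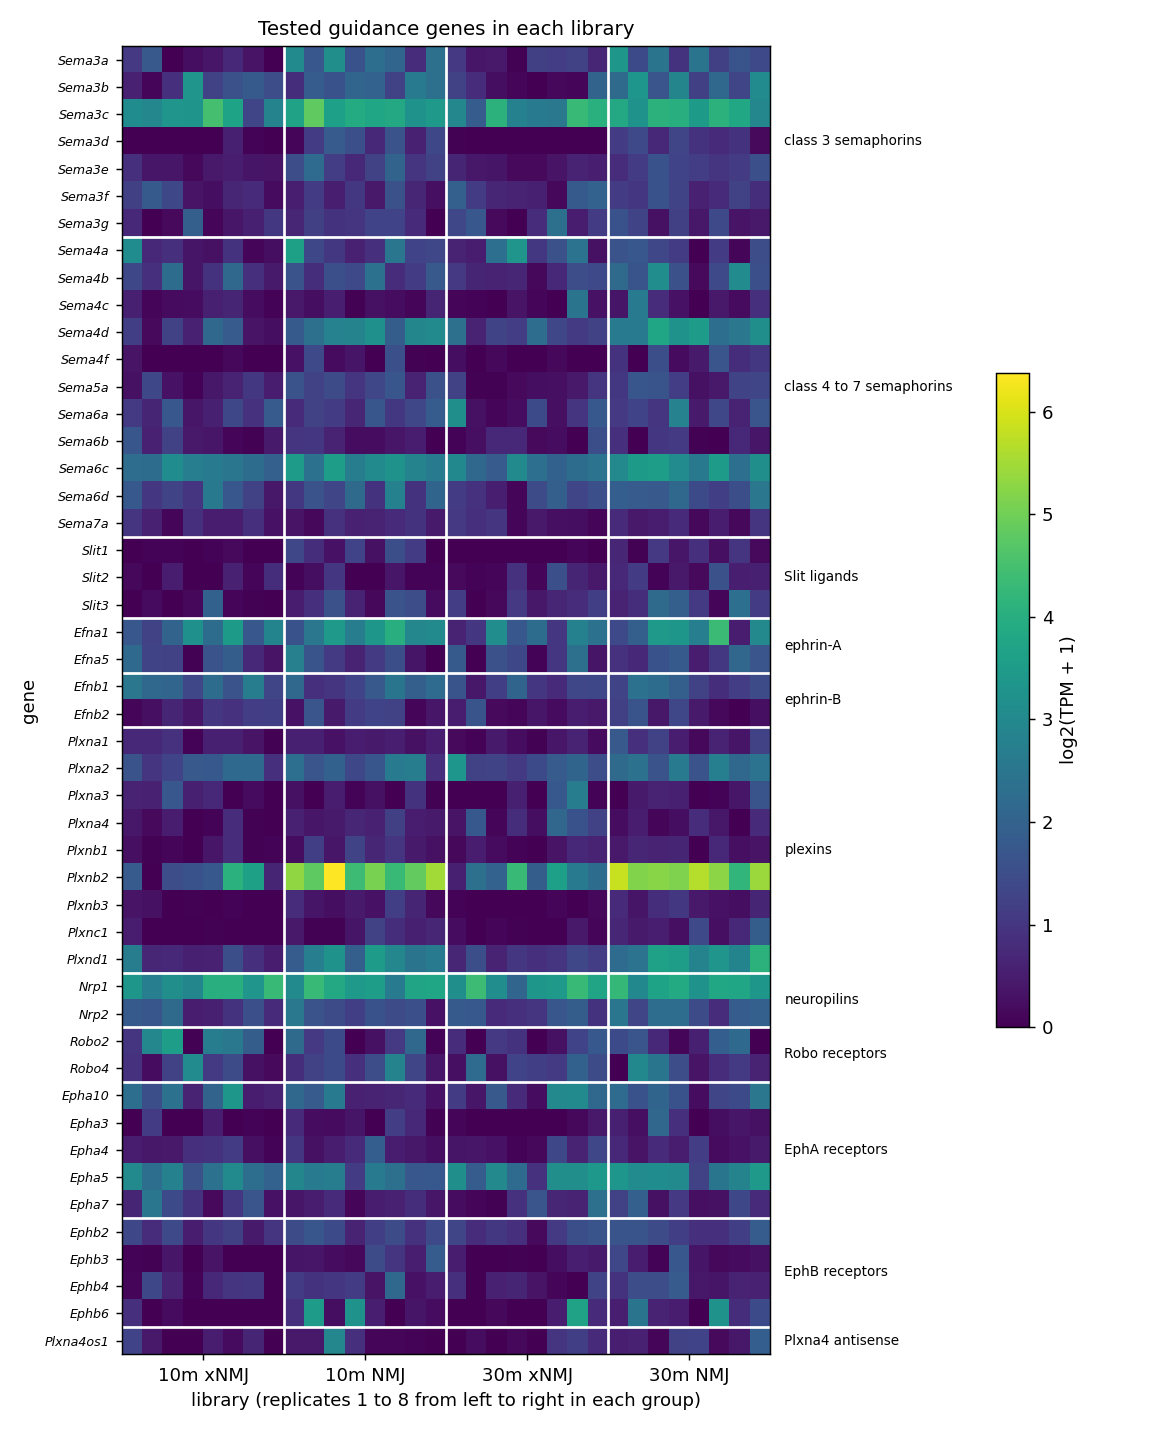
Heat map of log2(TPM + 1) for the 48 tested guidance genes (rows, by family) in the 32 libraries (columns, replicates 1 to 8 in each group). The row of Plxnb2 is the brightest in the NMJ libraries, whereas Sema3c, Nrp1 and Epha5 are bright in all 4 groups.

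The filter bears on these counts. Of the 48 members, 32 passed it within each region alone, 10 through NMJ libraries only, 0 through xNMJ libraries only and 6 over both regions together. Sema3d, Sema4f, Plxnb3 and Slit1 are among the 10. Sema3d reached 1 CPM in 1 xNMJ library, and Sema4f, Plxnb3 and Slit1 in 0. These members could thus hardly have passed the filter without being higher in NMJ, and the counts above are descriptions. The other 5 members higher in NMJ, Sema3a, Sema3e, Sema4d, Plxnb2 and Plxnd1, reached 1 CPM in enough libraries of each region. Without replicate 5 of 30m xNMJ, edgeR's log2 fold changes at 30 months were 6.27 for Sema3d, 5.33 for Slit1, 3.70 for Plxnb3 and 2.41 for Plxnd1, all called, and those of the other called members are given with each gene. Fewer cells of a type and less RNA per cell cannot be told apart in captured tissue.

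**Figure D2:**
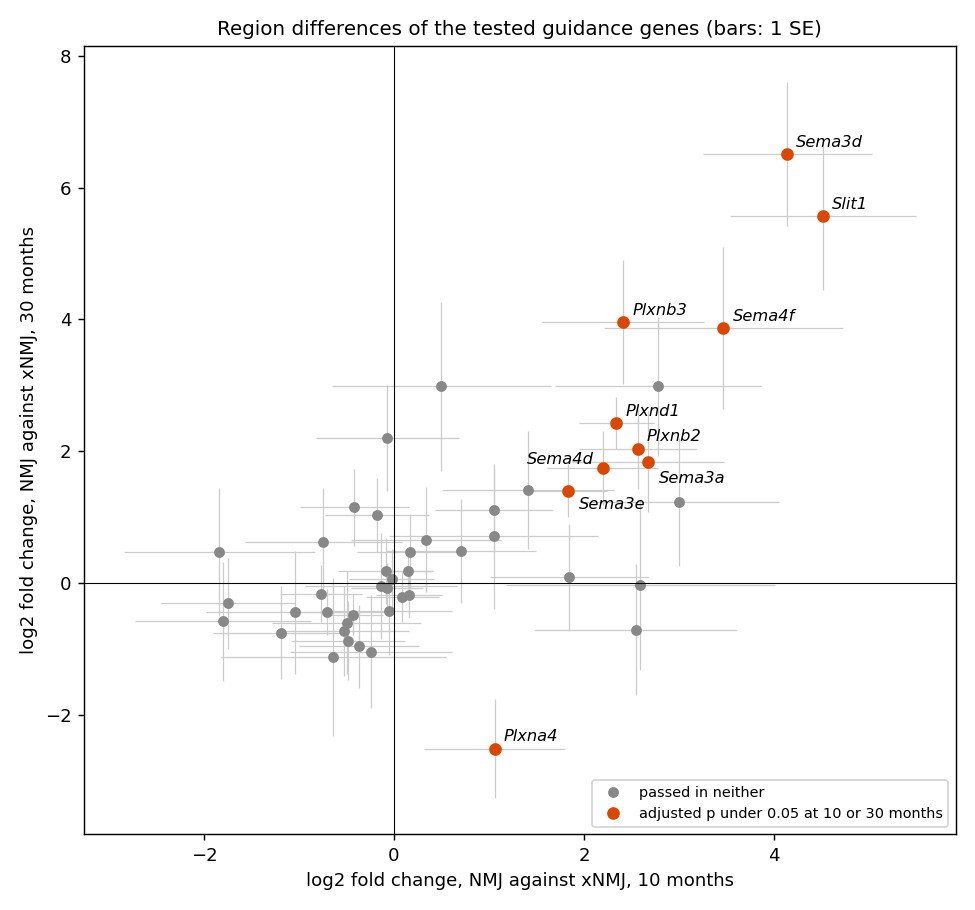
Log2 fold change of NMJ against xNMJ at 10 months (horizontal axis) and at 30 months (vertical axis) for the 48 tested guidance genes, with bars of 1 SE. Members that passed the test at either age are in orange. Sema3d and Slit1 lie farthest to the upper right, and Plxna4 alone among them lies below 0 at 30 months.

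Among the secreted class 3 semaphorins, Sema3a, Sema3d and Sema3e were higher in NMJ at 10 months, and Sema3d and Sema3e at 30 months. Sema3d (chr5:12383385-12588948), a class 3 cue, was almost without counts outside the synapse. Its level ranged from 0 to 0.472 TPM (median 0) in 10m xNMJ and from 0.0776 to 2.54 TPM (median 1.39) in 10m NMJ. At 30 months it ranged from 0 to 0.0318 TPM (median 0) in xNMJ and from 0.114 to 1.65 TPM (median 0.908) in NMJ. Of the xNMJ libraries, 6 at 10 months and 7 at 30 months held no count, 7 of the 8 NMJ libraries at 10 months exceeded every xNMJ library, and at 30 months the groups did not overlap. The fitted log2 fold change was 4.14 ± 0.89 (SE, edgeR, n = 8 per group, adjusted p = 0.0015) at 10 months, with 6.51 ± 1.10 (adjusted p = 1.0e-04) for 30 months. Here and below, an edgeR SE is approximate, being derived from the fold change and the test's F value. In 10m xNMJ 8 of the 10 counts were in replicate 6, without which the log2 fold change at 10 months was 6.31. The value at 30 months depends on the prior count of the fit, since 1 count stood against 345. The ratio of counts scaled by library size with TMM factors was 154, with a 95% interval for counting error from 27.5 to 6114. Without replicate 1 of 30m xNMJ, which held that count, the fitted value was 7.98.

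Sema3e (chr5:14025276-14256689), a ligand that binds Plxnd1 without a neuropilin, had low and even values. In 10m xNMJ it ranged from 0.105 to 0.82 TPM (median 0.31) and in 10m NMJ from 0.672 to 3.69 TPM (median 1.38). In 30m xNMJ it ranged from 0.122 to 0.57 TPM (median 0.311) and in 30m NMJ from 0.756 to 2.02 TPM (median 1.21). The groups overlapped by the highest xNMJ library at 10 months, replicate 1, and did not overlap in TPM at 30 months. NMJ exceeded xNMJ on the log2 scale by 1.83 ± 0.41 (SE, edgeR, n = 8 per group, adjusted p = 0.0022) at 10 months, with 1.40 ± 0.40 (adjusted p = 0.021) for 30 months. By edgeR the latter was 1.29 (adjusted p = 0.038) without replicate 5 of 30m xNMJ, and with only the 2 groups of 30 months in the fit the call was lost (adjusted p = 0.054).

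Sema3a (chr5:13125414-13602565), a repellent for motor axons, ranged from 0.0047 to 2.42 TPM (median 0.29) in 10m xNMJ and from 0.743 to 7.84 TPM (median 3.58) in 10m NMJ. In 30m xNMJ it ranged from 0.026 to 1.33 TPM (median 0.85) and in 30m NMJ from 0.915 to 9.43 TPM (median 1.93). The groups overlapped at both ages, and 5 NMJ libraries at 10 months and 6 at 30 months exceeded every xNMJ library. Its log2 fold change was 2.67 ± 0.80 (SE, edgeR, n = 8 per group, adjusted p = 0.023) at 10 months, with 1.84 ± 0.77 (adjusted p = 0.14) for 30 months. Of the 66 counts in 10m xNMJ 40 were in replicate 2, without which the log2 fold change at 10 months was 3.91, and with insert size as a covariate the call was lost (edgeR, adjusted p = 0.052). A pass at 10 months and not at 30 does not show a difference between ages, for which the log2 estimate was -0.83 ± 1.07 (interaction of age and region, edgeR).

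The other class 3 members passed at neither age in the main fit. With the replicate number as a block Sema3b passed at 30 months, as given in the last section. Sema3c, the most abundant semaphorin here, had medians of 12.2 TPM in NMJ against 8.16 in xNMJ at 10 months and 13.3 against 6.36 at 30 months, and its log2 fold changes were 0.16 ± 0.35 and -0.19 ± 0.35 (adjusted p = 0.84 and 0.83 by edgeR). Sema3b had medians of 2.83 TPM against 1.62 at 10 months and 3.55 against 0.137 at 30 months, with log2 fold changes of -0.07 ± 0.75 at 10 months and 2.20 ± 0.80 at 30 months (edgeR, adjusted p = 0.97 and 0.085). Sema3f and Sema3g had log2 fold changes between -1.04 and -0.24.

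Of the membrane-bound semaphorins, 11 of 13 were tested and Sema4d and Sema4f passed. Sema4d (chr13:51685529-51793747), a ligand of plexin-B1 and plexin-B2 and also known from T cells, had a median of 0.877 TPM (0.123 to 3.40) in 10m xNMJ and 6.17 TPM (2.49 to 8.14) in 10m NMJ. At 30 months the medians were 1.43 TPM (0.535 to 4.08) in xNMJ and 6.58 TPM (3.92 to 12.3) in NMJ. In all, 6 NMJ libraries at 10 months and 7 at 30 months were above every xNMJ library in TPM. In the fit, the log2 difference was 2.20 ± 0.58 (SE, edgeR, n = 8 per group, adjusted p = 0.0095) at 10 months, with 1.75 ± 0.56 (adjusted p = 0.043) for 30 months. By edgeR the call at 30 months was lost without any 1 of 11 libraries, replicates 1 to 4 and 6 to 8 of xNMJ and 1, 3, 5 and 8 of NMJ (adjusted p up to 0.0996). It was also lost with no filter on low counts (edgeR, adjusted p = 0.055), with insert size as a covariate and with only the 2 groups compared (0.051 each). Without replicate 5 of 30m xNMJ, which had the highest CPM of its group, the log2 fold change was 2.47 (adjusted p = 0.0022).

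Sema4f (chr6:82911885-82939769) had few counts. Medians were 0.181 TPM in NMJ against 0.0027 in xNMJ at 10 months and 0.835 against 0.0048 at 30 months, with highest values of 1.95 against 0.268 TPM and of 2.18 against 0.183 TPM. In 30m NMJ 6 of the 8 libraries exceeded every library of 30m xNMJ, while a library of 30m NMJ held no count. The log2 fold change was 3.87 ± 1.22 (SE, edgeR, n = 8 per group, adjusted p = 0.039) at 30 months, with 3.47 ± 1.25 (adjusted p = 0.070) for 10 months. At 30 months 6 counts stood against 233, a ratio of 17.4 with a counting interval from 7.86 to 47.8, and the edgeR call was lost without replicate 5 of 30m xNMJ (log2 fold change 3.62, adjusted p = 0.061) and without any 1 of 7 others, replicates 2, 4, 6, 7 and 8 of xNMJ and 3 and 6 of NMJ. Without replicate 1 of 30m xNMJ, which held 3 of the 6 counts, the log2 fold change was 4.62. The call was also lost with no filter on low counts and with insert size as a covariate (edgeR, adjusted p up to 0.10).

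The remaining membrane-bound semaphorins did not pass. Sema6c, which signals through plexin-As and is known from muscle, was the most abundant of them, with medians of 6.75 TPM in NMJ against 4.24 in xNMJ at 10 months and 7.74 against 3.87 at 30 months, and log2 fold changes of 0.14 ± 0.27 and 0.18 ± 0.27 (edgeR, adjusted p = 0.81 and 0.78). Sema4a had a median of 0.452 TPM in 10m xNMJ and 1.5 in 10m NMJ (log2 fold change 2.54 ± 1.07, edgeR adjusted p = 0.13), with single libraries up to 7.51 and 11.4 TPM. At 30 months its medians were 1.52 TPM in xNMJ and 1.36 in NMJ, and the log2 fold change was -0.71 ± 0.99 (edgeR adjusted p = 0.76).

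**Figure D3:**
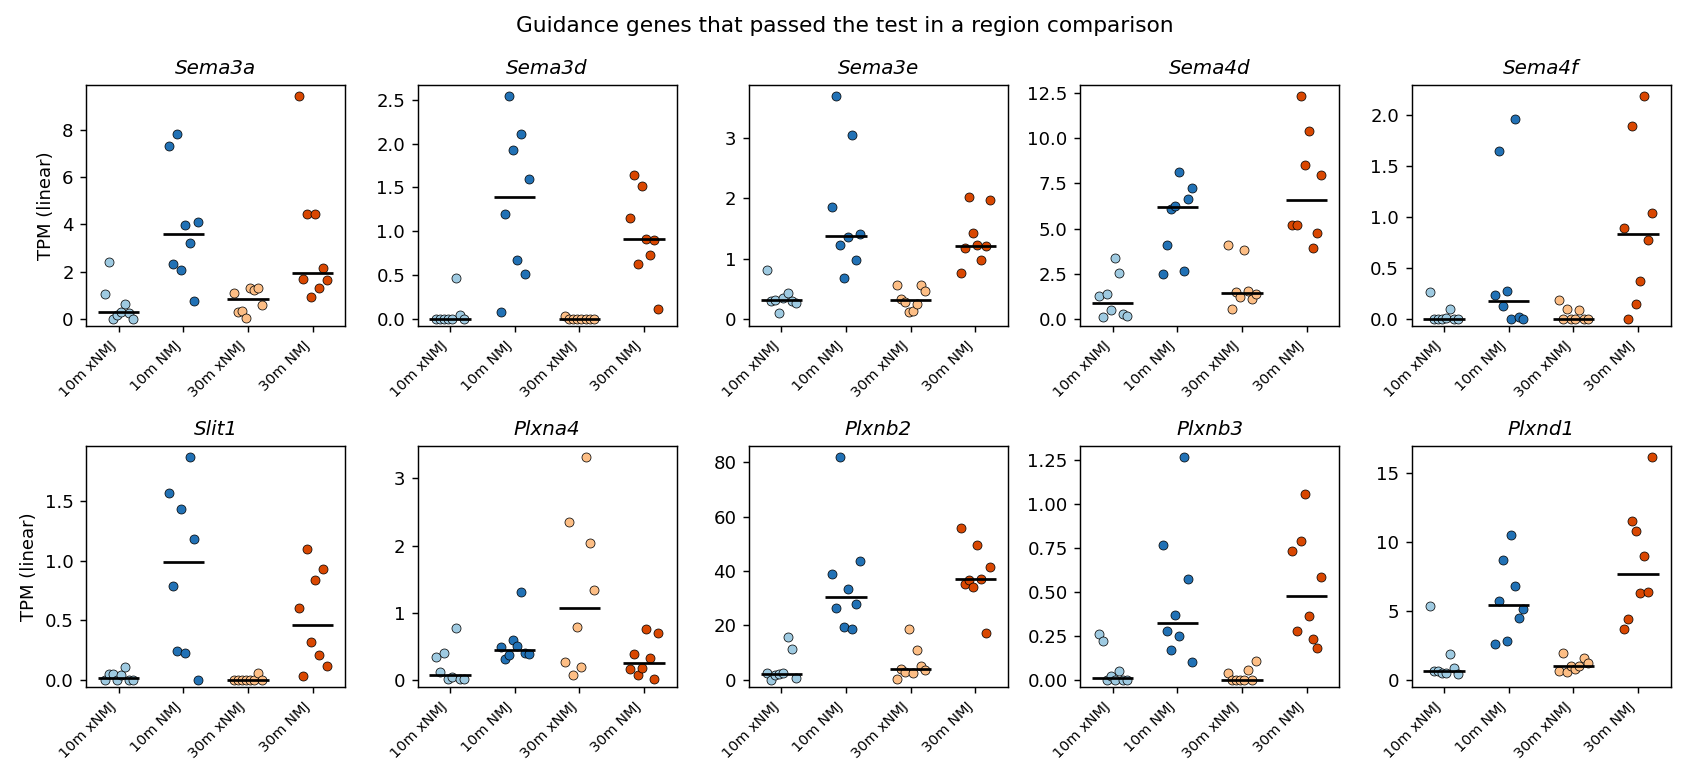
TPM (linear axes) of the 10 members that passed the test in a comparison of regions, with a point for each of the 8 libraries of a group and a line at the median. Plxnb2 reaches 82.0 TPM in 10m NMJ and stays at or under 18.7 TPM in all xNMJ libraries, whereas Plxna4 is highest in 4 libraries of 30m xNMJ.

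Plexins, the receptors of semaphorins, gave the highest values of the whole set in NMJ. At 10 months their 9 members summed to a median of 44.4 TPM (27.2 to 95.2) in NMJ against 7.16 TPM (1.92 to 23.3) in xNMJ, and at 30 months to 54.1 TPM (28.6 to 69.8) against 10.6 TPM (5.39 to 22.3). In NMJ most of the sum was Plxnb2 (chr15:89155549-89180788), which binds class 4 semaphorins such as Sema4d and also angiogenin, and which had the highest mean TPM of the guidance genes in both NMJ groups, 36.3 at 10 months and 38.5 at 30 months. In xNMJ its means were 4.57 and 6.11 TPM, below those of Nrp1 (11 and 11.1) and Sema3c (9.19 and 9.44). It ranged from 0 to 15.9 TPM (median 2.19) in 10m xNMJ and from 18.6 to 82.0 TPM (median 30.6) in 10m NMJ. At 30 months it ranged from 0.47 to 18.7 TPM (median 3.93) in xNMJ and from 17.3 to 55.8 TPM (median 37.1) in NMJ. The groups did not overlap in TPM at 10 months, and at 30 months only replicate 7 of NMJ and replicate 4 of xNMJ crossed. The fitted log2 fold change was 2.56 ± 0.62 (SE, edgeR, n = 8 per group, adjusted p = 0.0043) and 2.04 ± 0.61 (adjusted p = 0.027). Without replicate 5 of 30m xNMJ it was 1.94 (edgeR, adjusted p = 0.045), without replicate 4 it was 2.64, and the call at 30 months was lost without replicate 3 or replicate 8 of 30m xNMJ (adjusted p = 0.051 and 0.050).

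Plxnd1 (chr6:115954811-115995005), the receptor of Sema3e and known from endothelium, had the smallest p of the set at both ages. In 10m xNMJ it ranged from 0.394 to 5.36 TPM (median 0.626), with the next library at 1.88 TPM, and from 2.60 to 10.5 TPM (median 5.38) in 10m NMJ. At 30 months it ranged from 0.553 to 1.91 TPM (median 0.993) in xNMJ and from 3.66 to 16.2 TPM (median 7.64) in NMJ. Replicate 1 of 10m xNMJ was the library that overlapped, and at 30 months all 8 NMJ libraries were above all 8 xNMJ libraries. NMJ exceeded xNMJ on the log2 scale by 2.34 ± 0.40 (SE, edgeR, n = 8 per group, adjusted p = 7.9e-05) at 10 months, with 2.42 ± 0.40 (adjusted p = 6.8e-05) for 30 months, and no left-out library or other setting ended the call. Of 6 endothelial markers, 0 were higher in NMJ at either age by edgeR, and their summed medians were 83.8 TPM in NMJ against 77.5 in xNMJ at 10 months and 61.5 against 77.8 at 30 months, with Egfl7 the most abundant.

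Plxnb3 (chrX:73757090-73772514), a receptor of Sema5a, was low, with medians of 0.320 TPM in NMJ against 0.0095 in xNMJ at 10 months and 0.474 against 0 at 30 months. At 30 months it ranged from 0 to 0.106 TPM in xNMJ and from 0.181 to 1.05 TPM in NMJ, without overlap. In the fit, the log2 difference was 3.96 ± 0.95 (SE, edgeR, n = 8 per group, adjusted p = 0.0047) at 30 months, with 2.42 ± 0.85 (adjusted p = 0.062) for 10 months. At 30 months 4 counts stood against 182, a ratio of 20.4 with a counting interval from 7.82 to 75.5, and without replicate 8 of 30m xNMJ, which held 2 of the 4, the log2 fold change was 4.69. On TMM-scaled CPM, the groups did not overlap for 2 members at 10 months (Sema4d and Plxnd1) and for 3 at 30 months (Sema3d, Plxnb3 and Plxnd1), all higher in NMJ, beside 2.22% and 1.96% of all tested genes. On CPM by library total, Sema3e was added at both ages and Plxnb2 at 10 months, which gave 4 of the 48 at each age, beside 4.57% and 4.50% of all tested genes on that scale.

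Plxna4 (chr6:32144268-32588192), a partner of neuropilin-1 in the response to Sema3a, was the member that was lower in NMJ at 30 months. At 10 months its median was 0.447 TPM (0.307 to 1.31) in NMJ and 0.0779 TPM (0.0128 to 0.766) in xNMJ. At 30 months it was 0.252 TPM (0.0146 to 0.751) in NMJ and 1.07 TPM (0.0701 to 3.32) in xNMJ. Within 30m xNMJ, 4 libraries (replicates 2, 6, 7 and 8) lay between 1.34 and 3.32 TPM and above every other group's libraries, and the other 4 lay within the range of 30m NMJ or close to it. The log2 fold change of NMJ against xNMJ was 1.06 ± 0.74 (SE, edgeR, n = 8 per group, adjusted p = 0.42) at 10 months, with -2.51 ± 0.75 (adjusted p = 0.028) for 30 months. Left out in turn, 5 libraries ended the call at 30 months, replicates 2 and 6 of xNMJ and 1, 3 and 4 of NMJ, with edgeR's adjusted p up to 0.071, and without replicate 5 of 30m xNMJ the log2 fold change was -2.68 (adjusted p = 0.017). The call was also lost with insert size as a covariate (edgeR, adjusted p = 0.055) and in limma on log2(TPM + 0.1) (adjusted p = 0.076). With the replicate number as a block the call was lost too (log2 fold change -2.36, edgeR, adjusted p = 0.076). The counts were made without strand. The antisense transcript Plxna4os3 shares 110 exonic bases with Plxna4 and held 5 counts in all, and Plxna4os1 shares none, with medians between 0.126 and 0.483 TPM and log2 fold changes of 1.05 ± 1.10 and 0.71 ± 1.10 (edgeR, adjusted p = 0.63 and 0.78).

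The other 5 plexins did not pass at either age. Plxnc1, the receptor of Sema7a, had log2 fold changes of 2.78 ± 1.08 and 2.98 ± 1.06 (edgeR, adjusted p = 0.099 and 0.073), and Plxnb1 of 1.85 ± 0.84 and 0.09 ± 0.81 (adjusted p = 0.17 and 0.97). Plxna1, Plxna2 and Plxna3 had values between -1.13 and 1.15.

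The neuropilins, the binding partners of class 3 semaphorins, were abundant and showed no call. Nrp1, also a receptor for vascular endothelial growth factor, had medians of 11.4 TPM in NMJ against 9.19 in xNMJ at 10 months and 12.3 against 9.62 at 30 months. Its groups overlapped over most of their range, and its log2 fold changes were -0.43 ± 0.31 and -0.48 ± 0.31 (edgeR, n = 8 per group, adjusted p = 0.45 and 0.41). Nrp2 had log2 fold changes of -0.03 ± 0.44 and 0.07 ± 0.44. Of the 4 neuropilins and Robos tested, 0 had an unadjusted p under 0.05 in either region comparison, and DESeq2 called 0.

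Of the Slits, Slit1 (chr19:41600257-41743665) was higher in NMJ at both ages. It ranged from 0 to 0.112 TPM (median 0.0194) in 10m xNMJ and from 0 to 1.87 TPM (median 0.985) in 10m NMJ. At 30 months it ranged from 0 to 0.0554 TPM (median 0) in xNMJ and from 0.0331 to 1.10 TPM (median 0.458) in NMJ. At each age 7 of 8 NMJ libraries exceeded every xNMJ library. The log2 fold change was 4.51 ± 0.98 (SE, edgeR, n = 8 per group, adjusted p = 0.0016) and 5.57 ± 1.12 (adjusted p = 9.4e-04). In counts, 5 stood against 325 at 10 months, a ratio of 27.2 with a counting interval from 11.6 to 84.5, and 1 against 193 at 30 months, a ratio of 86.4 with an interval from 15.3 to 3428. Without replicate 7 of 30m xNMJ, which held that 1 count, the fitted value at 30 months was 7.07, which rests on the prior count. With insert size as a covariate the call at 10 months was lost (edgeR, adjusted p = 0.13).

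The other Slits and the Robos did not pass. Slit3 had medians of 0.686 TPM in NMJ against 0.0381 in xNMJ at 10 months and 1.15 against 0.680 at 30 months, and a log2 fold change of 1.41 at each age (SE 0.91 and 0.89, edgeR adjusted p = 0.38 and 0.40). The value at 10 months includes replicate 5 of 10m xNMJ, which held 32 counts of Slit3 beside a group median of 1. Slit2 had log2 fold changes of -1.84 ± 1.0 and 0.47 ± 0.97 (edgeR, adjusted p = 0.28 and 0.85). Replicate 8 of 10m xNMJ held 43 counts of Slit2, beside a group median of 1.5. Robo2, an axonal Slit receptor, had medians of 1.08 TPM in NMJ against 3.78 in xNMJ at 10 months and 1.17 against 0.833 at 30 months, with log2 fold changes of -1.80 ± 0.93 and -0.58 ± 0.91 (edgeR, adjusted p = 0.25 and 0.78). Robo4, the endothelial member, had -0.50 ± 0.78 and -0.60 ± 0.79.

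Of the 13 tested ephrins and Eph receptors 0 passed in edgeR at either age. At 10 months 2 of them, Epha7 (log2 fold change -1.74 ± 0.71) and Ephb3 (3.00 ± 1.05), had an unadjusted p under 0.05, and at 30 months 1, Epha3 (2.98 ± 1.28), beside 3192 and 2898 of all 13990 genes. DESeq2 called 1 at 10 months, Ephb3, and 0 at 30 months. Epha5, a receptor of ephrin-A ligands and the most abundant Eph receptor, had medians of 4.59 TPM in NMJ against 4.04 in xNMJ at 10 months and 7.34 against 7.42 at 30 months. Its log2 fold changes were -0.71 ± 0.35 and -0.44 ± 0.35 (edgeR, n = 8 per group, adjusted p = 0.23 and 0.54). Ephb6, which lacks kinase activity, varied widely between libraries of a group. It was under 1 TPM in most libraries and reached 10.4 TPM in 10m NMJ and, at 30 months, 11.7 in xNMJ and 8.45 in NMJ, and its log2 fold changes were 2.59 and -0.03 (SE 1.4 and 1.3).

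Efna1, an ephrin-A ligand known from endothelium, had medians of 6.92 TPM in NMJ against 3.46 in xNMJ at 10 months and 6.37 against 3.04 at 30 months. Its groups overlapped and its log2 fold changes were 0.17 ± 0.56 and 0.48 ± 0.56 (edgeR, adjusted p = 0.90 and 0.70). Efnb1, a ligand of EphB receptors, had medians of 2.64 TPM against 3.34 and of 1.61 against 1.41, and log2 fold changes of -0.77 ± 0.43 and -0.16 ± 0.43 (edgeR, adjusted p = 0.29 and 0.89). The tested members of the 4 ephrin and Eph families had median log2 fold changes between -0.71 and 1.47 at 10 months and between -0.43 and 0.48 at 30 months.

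The members too low to judge were Efna2, Efna3, Efna4, Efnb3, Epha1, Epha2, Epha6, Epha8, Ephb1, Robo1, Robo3, Sema4g, Sema5b, Plxna4os2 and Plxna4os3. The ephrins and Eph receptors account for 9 of them, so that 13 of 22 in these families could be tested. Over the 32 libraries together Robo1 held 195 counts and reached 1 CPM in 7 libraries, Sema5b held 163 counts and Efna3 6. The highest value of any of them in a library was 3.72 TPM. A floor of 3 counts stood between 0.182 and 0.745 CPM, so that differences under it were not detectable at this depth.

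Between the ages no guidance gene passed in edgeR. In NMJ, 0 of 48 members passed between 30 and 10 months and 0 had an unadjusted p under 0.05 by edgeR, and DESeq2 called 0. Over all genes 0% were higher and 0% lower, with 372 of 13990 at an unadjusted p under 0.05. The members with the largest estimates were Sema4a, at -2.03 ± 1.01, and Slit2, at 1.97 ± 1.0, and the SE of the log2 fold change over the 48 ranged from 0.27 for Sema6c to 1.26 for Ephb6. Among the members with calls between regions, the estimates were 0.19 ± 0.37 for Plxnd1, 0.01 ± 0.58 for Plxnb2, -0.45 ± 0.74 for Sema3d and -0.84 ± 0.79 for Slit1.

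In xNMJ, 0 of 48 members passed by edgeR, against 0.0357% higher and 0.00715% lower over all genes, and 5 had an unadjusted p under 0.05, beside 1322 of 13990 genes in all. Plxna4 had the smallest, at a log2 fold change of 2.77 ± 0.78 (edgeR, n = 8 per group, adjusted p = 0.22), and it was the 1 member that DESeq2 called (2.80 ± 0.70, adjusted p = 0.020). The share of all genes that DESeq2 called in this comparison is not given, so that call cannot be set against it. The other members with an unadjusted p under 0.05 were Sema3d (-2.81 ± 1.14), Efnb1 (-1.06 ± 0.44), Sema3b (-1.86 ± 0.80) and Sema4d (1.23 ± 0.58), with edgeR adjusted p between 0.41 and 0.50. Sema3d was at 0 counts in most libraries of both xNMJ groups, so that its estimate rests on 2 libraries of 10m xNMJ and 1 of 30m xNMJ. For Sema4d, replicate 5 of 30m xNMJ was at 9.33 CPM beside a group median of 1.26. Of the marker lists, 1 synaptic gene, Etv5, was higher in xNMJ at 30 months in edgeR, where replicate 5 had the highest synaptic sum.

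The interaction of age and region, which tests whether the region difference changed with age, called 0 members and 0% of all genes higher and 0% lower in edgeR, and DESeq2 called 0 members. Its unadjusted p was under 0.05 for 708 of 13990 genes and for 3 of the 48 members, Plxna4 (-3.57 ± 1.05, edgeR adjusted p = 0.62), Sema4a (-3.25 ± 1.45, adjusted p = 0.91) and Sema3b (2.27 ± 1.09, adjusted p = 0.97). The region difference of Plxna4 at 30 months is therefore not shown to differ from that at 10 months.

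**Figure D4:**
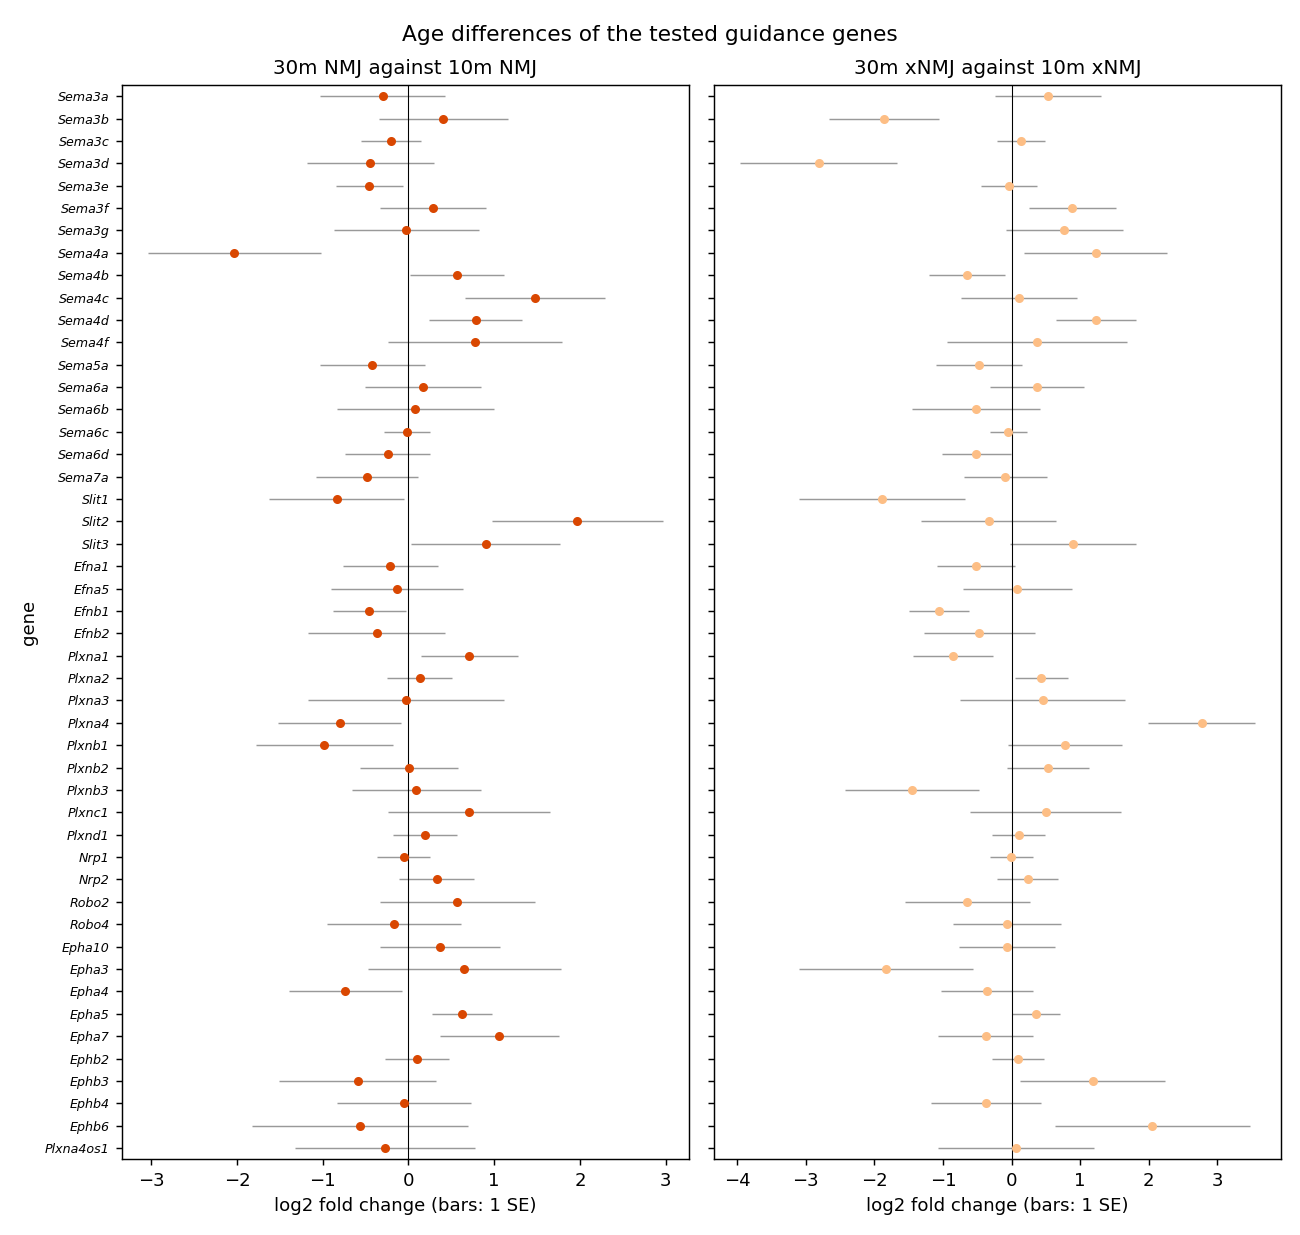
Log2 fold change of 30 against 10 months in NMJ (left) and xNMJ (right) for the 48 tested guidance genes, ordered by family, with bars of 1 SE. Plxna4 lies at 2.77 in xNMJ and at -0.80 in NMJ, and no member passed the edgeR test in either panel.

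Markers of other cells moved with region. Of 6 Schwann cell markers, led in NMJ by S100b (a calcium-binding protein of glia), 5 were higher in NMJ at each age, Ngfr being the exception, and their summed medians were 73.0 TPM in NMJ against 0.490 in xNMJ at 10 months and 48.2 against 0.598 at 30 months. Of 7 fibroblast markers, led by Dcn (decorin), 5 were higher at 10 months and 4 at 30 months, with sums of 826 TPM against 72.9 and of 788 against 94.1. Of 7 macrophage markers 4 and then 3 were higher, with Mrc1 at the highest NMJ medians (12.7 and 12.3 TPM) and Cd68 at 225 TPM in a library of 10m NMJ, with sums of 44.3 TPM against 3.86 and of 42.6 against 5.0. Mean insert size was also larger in NMJ, with medians of 117.5 bases against 93.5 at 10 months and 107 against 96 at 30 months. The groups overlapped: the smallest of the 32 values was 52 bases in replicate 8 of 10m NMJ, and the largest at 30 months was 130 bases in replicate 5 of 30m xNMJ. The part of these cells in the semaphorin, plexin and Slit differences was not tested. With insert size as a covariate, the calls of Sema3a and Slit1 at 10 months and of Plxna4, Sema4d and Sema4f at 30 months were lost in edgeR, and the others of both ages were kept.

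Of the other markers, 1 of 6 pericyte genes (Cspg4) was higher at each age and Rgs5 was lower at 30 months, and 1 of 4 tested muscle stem cell genes (Sdc4) was higher at each age. The pericyte list, led by Rgs5, had median sums of 54.1 TPM in NMJ against 40.4 in xNMJ at 10 months and 61.6 against 43.0 at 30 months, and the stem cell list 35.4 against 8.07 and 28.6 against 7.94. Among the muscle fibre genes, Ckm, Acta1, Myh1 and Tnnt3 were lower at each age. Egfl7 and Cdh5 of the endothelial list were lower at 30 months.

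**Figure D5:**
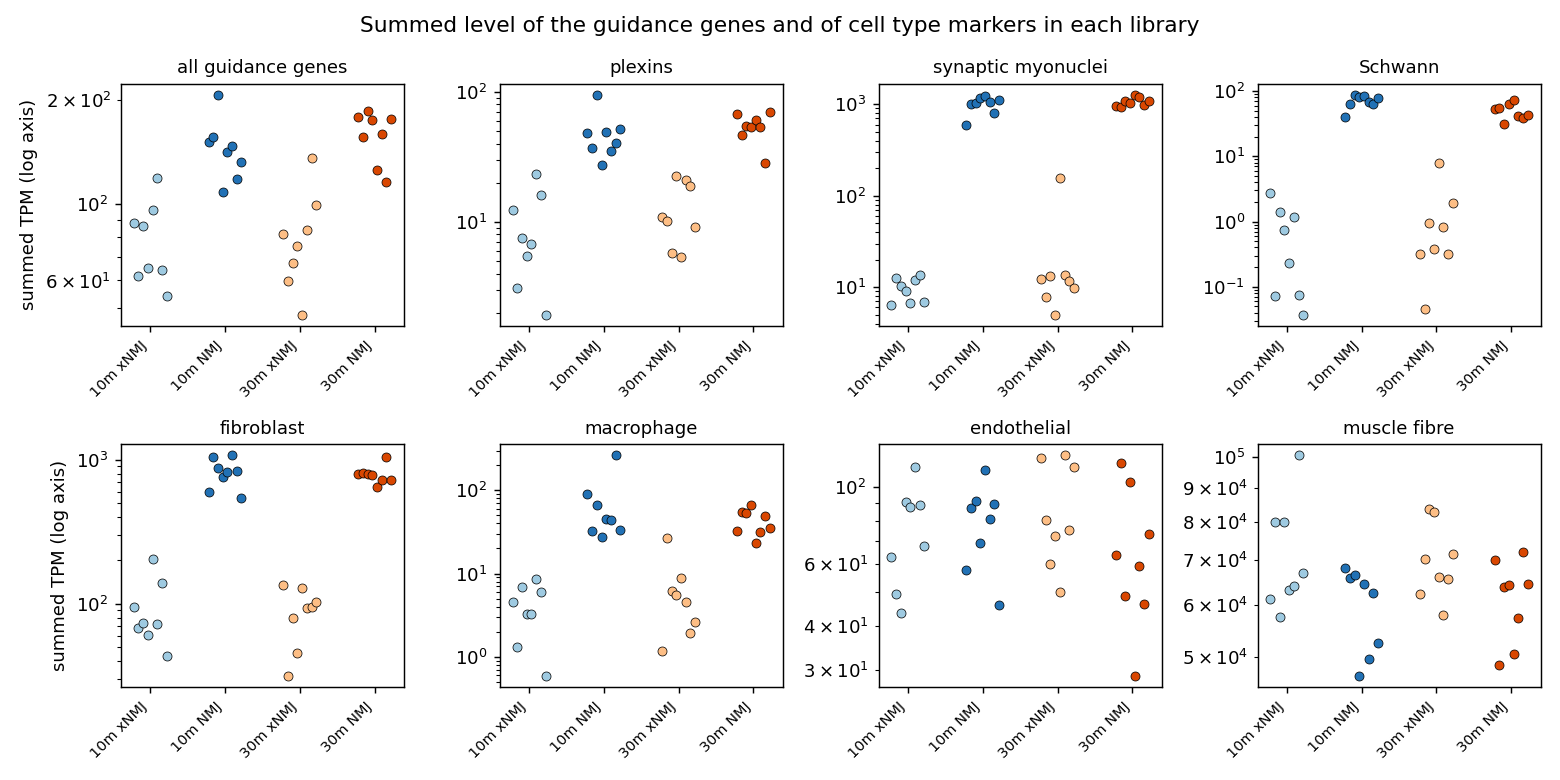
Summed TPM (log axes) of the guidance genes, the plexins and 6 marker lists, with a point for each library. The plexin, Schwann, fibroblast and synaptic sums separate NMJ from xNMJ at both ages, the macrophage sums cross at 30 months, the endothelial and muscle fibre sums overlap, and the high synaptic value among the 30m xNMJ libraries is replicate 5, at 155 TPM.

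Of 64 genes that act beside these families, 52 were tested, and 6 were higher and 1 lower in NMJ at 10 months (11.5% higher, beside 6.50% of all tested genes) and 4 higher and 1 lower at 30 months (7.69% higher, beside 5.0%). With insert size as a covariate the count of 7 at 10 months became 2, Vav3 and Ntng1, and the calls of Mical1, Dag1, Rgmb, Flrt3 and Dpysl2 at that age were lost, while 5 were called at 30 months. By limma on log2(TPM + 1), 14 of the 52 were higher and 1 lower at 10 months, beside 19.2% and 1.69% of all genes, and 18 higher and 0 lower at 30 months, beside 25.0% and 0.429%. Without replicate 5 of 30m xNMJ the count of 5 at 30 months was 6. Vav3, an exchange factor that acts downstream of Eph receptors, had the smallest p, with medians of 13.6 TPM in NMJ against 0.132 in xNMJ at 10 months and 15.5 against 0.149 at 30 months. Its groups did not overlap at either age, and its log2 fold change was 4.46 ± 0.84 (SE, edgeR, n = 8 per group, adjusted p = 3.5e-04) and 4.63 ± 0.86 (adjusted p = 3.6e-04). Mical1, an oxidoreductase that works for plexin-As on actin, was higher by 2.75 ± 0.85 (edgeR, adjusted p = 0.027) and 3.70 ± 0.90 (adjusted p = 0.0052). Dag1, which encodes dystroglycan, a Slit-binding protein of the muscle membrane, was higher by 0.51 ± 0.15 (edgeR, adjusted p = 0.022) and 0.72 ± 0.15 (adjusted p = 0.0015).

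The netrin-G1 gene Ntng1 was higher by 3.15 ± 0.80 and 3.01 ± 0.77 (edgeR, adjusted p = 0.0065 and 0.0082) on the log2 scale. Rgmb, a co-receptor for bone morphogenetic proteins, and Flrt3, a partner of Robo1, passed at 10 months only, with 1.86 ± 0.56 (edgeR, adjusted p = 0.024) and 4.73 ± 1.38 (adjusted p = 0.019), and had -0.19 ± 0.54 and 3.00 ± 1.21 at 30 months. Dpysl2, the collapsin response mediator that carries semaphorin signals to microtubules, was the member of the list that was lower. It had medians of 286 TPM in NMJ against 752 in xNMJ at 10 months and 383 against 881 at 30 months, and its groups overlapped. Its log2 fold change was -1.96 ± 0.46 (SE, edgeR, n = 8 per group, adjusted p = 0.0035) and -1.87 ± 0.46 (adjusted p = 0.0060). In both age comparisons and the interaction 0 of the 52 passed in edgeR.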

How the data were processed

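Counts and TPM were used as deposited. Per the labels and the study's methods, the authors trimmed single-end SMART-Seq v4 reads with Cutadapt 1.9.1 and aligned them to GRCm38 (Ensembl) protein-coding transcripts with kallisto 0.43.1. A read that fitted several transcripts was split evenly between them, and the authors summed transcripts into counts per gene, without strand. The TPM values, which the authors scaled for transcript length and library, served for levels. The table also lists antisense genes.

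Counts of the 32 libraries were fitted in edgeR 4.0.16 (R 4.3.3) as 4 groups with TMM factors, a filter of 1 CPM in 8 libraries and the two-sided quasi-likelihood test, with Benjamini-Hochberg adjustment over 13990 genes. The test gives no SE, so each edgeR SE is the size of the log2 fold change divided by the square root of the F value. Such SEs are approximate. The script recovered changes planted in simulated counts. Ratios of counts, and their intervals, are scaled by library size with TMM factors. Counting intervals are exact at 95% and, like floors, cover counting error only. DESeq2 1.42.0, limma 3.58.1 on log2(TPM + 1) and log2(TPM + 0.1), other filters and scaling, the replicate number, insert size and left-out libraries were alternatives. Positions are from the GENCODE annotation of GRCm38.

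Named were members that passed, the most abundant of each family, the 3 with the smallest p in each comparison, and all too low to test. Some others were named after their values were seen. The members and lists were chosen with earlier results of these data known. Some marker genes are not reported here and were left out of their list.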

Additional observations from a re-analysis of the deposited data

Results flagged for a closer look

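For the 24 named members, each of the 4 groups was checked for a library far from the other 7. Dixon's criterion at 95% was used on log2(TPM + 1), while the values printed below are TPM. For near-normal values chance alone meets it in about 1 of 20 groups, a rate that does not hold for groups made mostly of zeros, such as Sema3d and Slit1 in 30m xNMJ, where 1 count stood against 7 libraries without any. A library stood apart in 17 of the 96 groups looked at. No cause was tested.

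Among the semaphorins, Sema3c reached 27.1 TPM in replicate 2 of 10m NMJ, with the next library at 14.0 TPM. Sema3d had 0.472 TPM in replicate 6 of 10m xNMJ (next 0.0444) and 0.0318 TPM in replicate 1 of 30m xNMJ (next 0). Sema4a had 7.51 TPM in replicate 1 of 10m xNMJ (next 0.912), and Sema4f had 0.268 TPM in the same library (next 0.101). Sema4c had 4.49 TPM in replicate 7 of 30m xNMJ (next 0.254) and 5.04 TPM in replicate 2 of 30m NMJ (next 0.842).

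Of the Slits, Slit1 had 0.112 TPM in replicate 6 of 10m xNMJ (next 0.0503) and 0.0554 TPM in replicate 7 of 30m xNMJ (next 0). Slit2 had 1.01 TPM in replicate 3 of 10m NMJ (next 0.311), and Slit3 had 2.93 TPM in replicate 5 of 10m xNMJ (next 0.136).

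Among the receptors, Epha5 was low in replicate 5 of 30m NMJ at 1.35 TPM (next lowest 4.59), and Plxnb2 was low in replicate 7 of 30m NMJ at 17.3 TPM (next lowest 34.2). Ephb6 had 0.853 TPM in replicate 1 of 10m xNMJ (next 0.135) and 11.7 TPM in replicate 7 of 30m xNMJ (next 0.703). Plxna4 had 1.31 TPM in replicate 6 of 10m NMJ (next 0.597), and the antisense transcript Plxna4os1 had 6.69 TPM in replicate 3 of 10m NMJ (next 0.801).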

How the results depend on the processing

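No called fold change turned its direction under the alternatives run. Of the 7 guidance genes called at 10 months, edgeR's count became 11 with the replicate block (10 higher, 1 lower), DESeq2 called 11, and limma called 11 on log2(TPM + 1) and 12 on log2(TPM + 0.1). The share of all genes called with the replicate block is not given, so its counts at either age cannot be set against such a share. Left-out libraries gave 7 to 12, with 12 without replicate 1 of 10m xNMJ. Of the 9 at 30 months, 5 were called with at least 5 CPM, where Plxnb3, Sema3d, Sema4f and Slit1 were not tested, and limma called 16 and 15. Left-out libraries gave 6 to 10. With the replicate block the split was 9 higher and 0 lower, since Sema3b passed (log2 fold change 3.00, edgeR adjusted p = 0.0065) and Plxna4 did not (-2.36, 0.076), and with insert size 7 and 0. In xNMJ with age, DESeq2 called 1, and the share of all genes it called there is not given. With insert size, the edgeR calls of Sema3a (adjusted p = 0.052) and Slit1 at 10 months and of Plxna4 (0.055), Sema4d (0.051) and Sema4f (0.10) at 30 months were lost. At 30 months Sema4d (0.055) and Sema4f (0.059) were lost without a filter, Sema3e (0.054) and Sema4d (0.051) with only the 2 groups, and Plxna4 (0.076) in limma on log2(TPM + 0.1). Of the 7 other guidance genes at 10 months, 2 were called with insert size, and limma called 15 and 16. Left-out libraries gave 5 to 8. Of the 5 at 30 months, 3 were called with at least 5 CPM, 8 with the block, and 18 by limma on each scale, with 5 to 6 for left-out libraries. Same-numbered libraries of both regions had a mean correlation of 0.0893 at 10 months (4 of 8 pairs over 0.1) and 0.0808 at 30 months (1 of 8), beside -0.013 and -0.011 for other pairs. At each age 4 of 8 correlated best with their own number, which is a hint of pairing from the data. The numbers were not taken as pairs, because not every pair exceeded 0.1 and no label ties a number to an animal. At 10 months the block raised the log2 fold changes of Plxnb2 to 3.31, Sema3a to 3.41 and Sema3d to 5.43. The causes of these shifts were not tested. With 3 counts standing for up to 0.745 CPM, the low members rest on few counts.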
